A study of Mus musculus with 6 samples.

Results

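The genes described here are the 8 that write, maintain, oxidise and excise methylated cytosine in DNA: Tet1, Tet2, Tet3, Dnmt1, Dnmt3a, Dnmt3b, Uhrf1 and Tdg. They were taken by gene symbol, and all 8 were present among the 16022 symbols of the table. Transcripts were measured by RNA sequencing in mouse bone marrow LSK cells, a sorted fraction enriched for hematopoietic stem cells and early progenitors that lacks lineage markers and carries high Sca-1 and c-kit. The 6 libraries comprised 3 of the wild-type (WT) genotype and 3 of the HDAC6 knockout genotype. The labels give no strain, age, treatment or deleted exons, and do not name separate animals as the source of the samples; the p-values reflect only how these samples vary. HDAC6 is a mainly cytoplasmic deacetylase, and the title of the series links it to IDH1, the cytosolic isocitrate dehydrogenase that makes 2-oxoglutarate.

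DNA methyltransferases place a methyl group on cytosine, mostly at CG dinucleotides. DNMT1 copies the existing pattern onto new DNA after replication, guided by UHRF1, which binds half-methylated DNA, whereas DNMT3A and DNMT3B methylate sites without a template. The TET enzymes use 2-oxoglutarate to oxidise 5-methylcytosine, and TDG removes the later oxidation products so that repair can restore cytosine. In hematopoiesis DNMT3A and TET2 are known for their roles in stem cell self-renewal and differentiation and as recurrent targets of mutation in clonal hematopoiesis and myeloid malignancy.

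Total estimated counts ran from 25993971 to 28743672 per library, and each of the 8 genes had between 561 and 22252 counts in every library. The targeted gene, Hdac6, fell from 60.2 ± 7.03 to 9.53 ± 1.80 counts per 1e6 counts (CPM; SD, n = 3 each), with an edgeR quasi-likelihood adjusted p of 0.000594. It was the only gene of 12875 tested that passed an adjusted p of 0.05, a background of 0.00777%, and of the 8 genes 0 passed. The libraries of the groups did not overlap in 18.6% of all tested genes, 8.86% with the knockout higher and 9.7% with it lower. Of the 8 genes 1, Tdg, was separated on the higher side and 1, Dnmt3a, on the lower side. The median log2 fold change was 0.05 over the 8 genes and 0.00 over all tested genes, with 4 of the 8 above WT (49.5% of all tested genes) and 4 below (50.5%). All 8 passed the filter on low counts.

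By counts over all genes 1 library, knockout replicate 3, lay nearer to WT than to its own group. It differed from each WT library by a chi-square per degree of freedom of 24.9 to 34.2. The values were 55.8 and 51.5 from knockout replicates 1 and 2, and its nearest library was WT replicate 3. Knockout replicates 1 and 2 differed by 43.8, and pairs of WT libraries by 33.8 to 37.9. The neutrophil and the T and NK cell markers, described further below, did not place knockout replicate 3 near WT. Leaving out the knockout library nearest to WT tends by itself to enlarge differences. Without it the log2 fold changes were -0.57 for Tet1, -0.33 for Tet2, -0.19 for Tet3, 0.29 for Dnmt1, -0.36 for Dnmt3a, 0.18 for Dnmt3b, 0.40 for Uhrf1 and 0.55 for Tdg, with edgeR adjusted p from 0.0938 (Tdg) to 0.676 (Dnmt3b), so 0 of the 8 genes passed, while 44 of all genes did.

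Promoter stretches are shown for Dnmt1 and Uhrf1, whose transcripts ranked the libraries similarly, and for Tdg, the member with the smallest p. They come from RefSeq windows on GRCm38.p6, a different build from the GRCm39 named in the submitters' processing notes, and all 8 genes matched with 13 windows. Capitals mark the E2F motif (TTTCGCGC or TTTGGCGC), the CCAAT box (CCAAT), the cyclic AMP response element (CRE; TGACGTCA) and the E-box (CACGTG), each searched on both strands in the 250 bases before the start. In Tdg the CRE, the CCAAT box and the E-box are marked, and in Uhrf1 and Dnmt1 the E2F motif and the CCAAT box.
Tdg, chr10:82629688-82629822, plus strand: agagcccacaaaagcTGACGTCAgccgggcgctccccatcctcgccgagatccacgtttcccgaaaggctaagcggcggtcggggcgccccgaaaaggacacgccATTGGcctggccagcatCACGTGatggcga
Uhrf1, chr17:56304113-56304252, plus strand: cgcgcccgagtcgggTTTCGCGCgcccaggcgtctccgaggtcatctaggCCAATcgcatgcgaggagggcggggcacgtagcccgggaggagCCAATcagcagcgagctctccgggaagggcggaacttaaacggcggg
Dnmt1, chr9:20952830-20952859, minus strand: CCAATTGGtttccgcgcGCGCGAAAaagcc
In the Dnmt1 stretch the E2F motif lies on the reverse strand, 219 bases before the start at 20952623, and the capitals CCAATTGG hold 2 overlapping CCAAT matches on opposite strands. The Uhrf1 motif lies 185 bases before the start at 56304313. Of 32851 windows of the same length, 0.654% held the E2F motif, 33.8% a CCAAT box, 1.55% the CRE and 6.02% the E-box. The E2F motif was found in 2 of the 13 windows of these genes, 1 of 2 for Uhrf1 and 1 of 3 for Dnmt1. A CCAAT box was found in 6 of the 13. The E-box was also found in 1 Dnmt3a window, and the CRE only in the Tdg window. These matches describe letters in the windows, and binding was not measured. CG dinucleotides in the 250 bases before the start numbered 51 for Tet2, 21 for Dnmt3b, 19 for Tdg, 17 for Tet3 and 15 for Tet1. The Dnmt3a windows held 38, 40 and 15, the Uhrf1 windows 10 and 30, and the Dnmt1 windows 26, 7 and 2. The median over all windows was 6.

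Per length, the maintenance pair was the most abundant and the TET genes the least. In WT, Dnmt1 stood at 124 ± 8.57 FPKM (fragments per kilobase, scaled to library depth, as deposited) and Uhrf1 at 113 ± 17.6 FPKM (SD, n = 3), and these neighbours overlapped between libraries. Tdg followed at 49.7 ± 7.47 FPKM. Among the de novo enzymes Dnmt3b stood at 20.5 ± 4.93 FPKM and Dnmt3a at 11.5 ± 0.722 FPKM, with no overlap between the 2 genes. Tet1 measured 6.84 ± 0.828 FPKM, Tet3 4.79 ± 1.02 FPKM and Tet2 3.61 ± 0.658 FPKM, the last pair overlapping. The order of the 8 genes by mean FPKM was the same in the knockout, where Tet1 (3.52 to 6.38 FPKM) overlapped Tet3 (3.63 to 5.12 FPKM) and Tet2 (2.19 to 3.18 FPKM) lay below both.

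**Figure D1:**
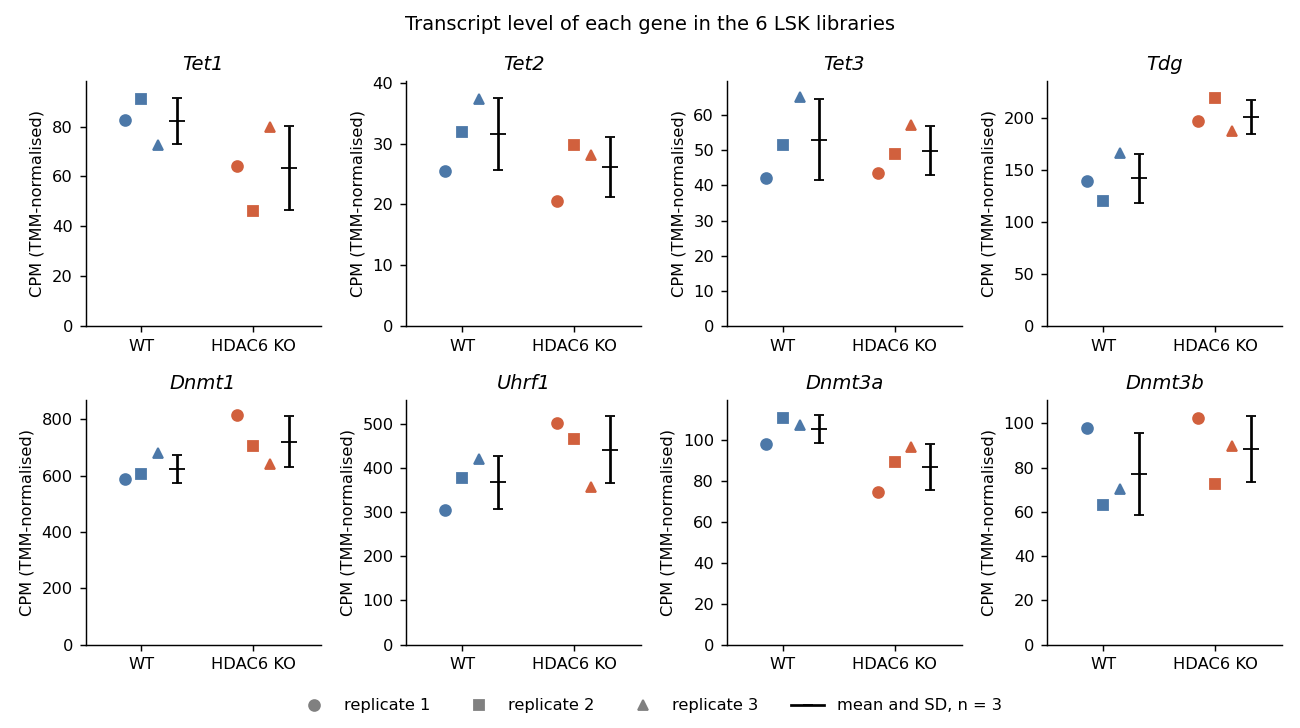
TMM-normalised CPM of each gene (vertical axes from 0, scales differ) in the WT and HDAC6 knockout libraries; marker shape is the replicate number, and bars give the mean and SD of 3 libraries. The groups are separate for Tdg (knockout higher) and Dnmt3a (knockout lower) and overlap for the other 6 genes.

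Dnmt1, the maintenance methyltransferase, measured 587, 605 and 680 CPM in WT replicates 1 to 3 and 817, 707 and 640 CPM in knockout replicates 1 to 3. Knockout replicates 1 and 2 lay above every WT library, while knockout replicate 3 lay inside the WT range. The log2 fold change was 0.21 (SE 0.11, 95% interval -0.04 to 0.46), with an edgeR adjusted p of 0.433. Without knockout replicate 1 it was 0.11.

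Uhrf1 encodes the reader that brings DNMT1 to half-methylated DNA, and it had a similar arrangement of libraries. It stood at 305, 378 and 422 CPM in WT against 504, 467 and 357 CPM in the knockout. Again 2 knockout libraries exceeded all WT libraries and the knockout replicate 3 did not. Its log2 fold change was 0.27 (SE 0.15, 95% interval -0.07 to 0.61; edgeR adjusted p = 0.46), and it was 0.15 without WT replicate 1 and 0.17 without knockout replicate 1. The ratio of Uhrf1 to Dnmt1 in FPKM was 0.91 ± 0.0936 in WT and 0.946 ± 0.0797 in the knockout (SD, n = 3 each; exact two-sided permutation p = 0.7).

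Both genes are known to be transcribed mainly in cycling cells, so a list of 28 S phase genes that holds neither was read beside them. The mean of that list, as log2 CPM minus the mean of the 6 libraries, was -0.17, -0.16 and -0.06 in WT and 0.29, 0.17 and -0.07 in the knockout. From highest to lowest the libraries stood in the same order for this list and for Dnmt1, and in both, knockout replicate 3 was among the WT libraries. In the list, WT replicate 3 and knockout replicate 3 (-0.06 and -0.07) were nearly tied, as were WT replicates 2 and 1 (-0.16 and -0.17). Uhrf1 differed in order, with knockout replicate 3 below WT replicate 2. In the list 24 of 28 genes lay above WT (49.5% of all tested genes did), 8 had separate groups, all higher in the knockout (8.86% of all tested genes), and 0 passed the test, with Ccne1 (log2 fold change 1.49) and Chaf1a (1.06) at the smallest p. The part of S phase activity in the Dnmt1 and Uhrf1 values was not tested, and in bulk RNA fewer cells of a type and less RNA per cell cannot be told apart.

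**Figure D2:**
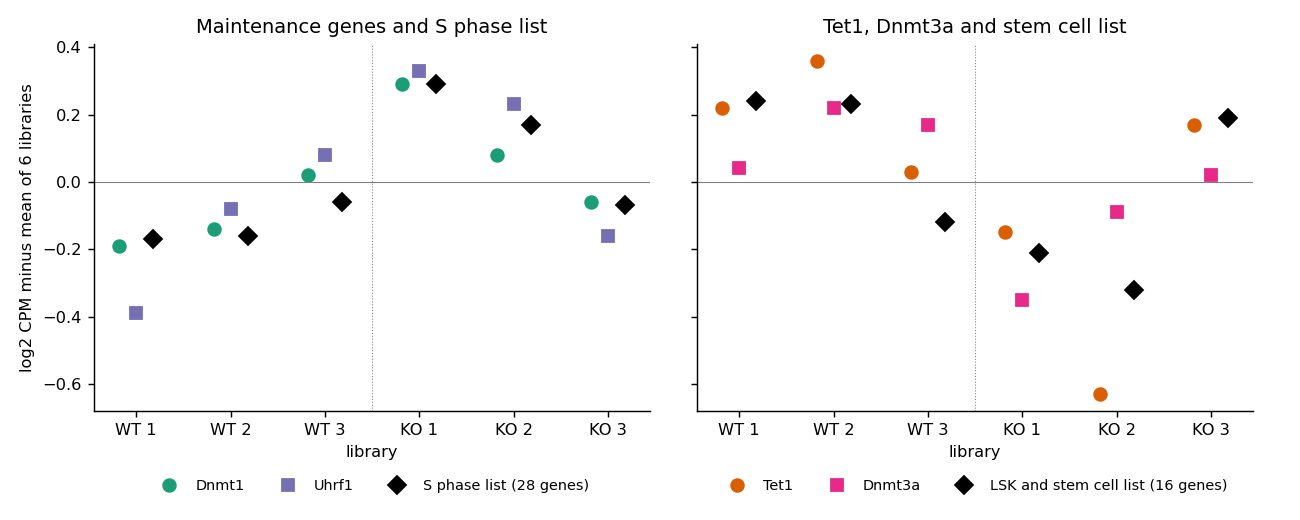
Each library's log2 CPM minus the mean of the 6 libraries for Dnmt1, Uhrf1 and the S phase list mean (left) and for Tet1, Dnmt3a and the mean of the LSK and stem cell marker list (right). On the left, knockout replicates 1 and 2 are highest for all 3 series and knockout replicate 3 is at -0.06, -0.16 and -0.07. On the right, knockout replicates 1 and 2 are the lowest for all 3 series.

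The de novo enzymes lay on opposite sides. Dnmt3a measured 98.0, 111 and 108 CPM in WT against 74.7, 89.4 and 96.7 CPM in the knockout. Every knockout library was below every WT library, though knockout replicate 3 (96.7 CPM) came close to WT replicate 1 (98.0 CPM). The log2 fold change was -0.28 (SE 0.13, 95% interval -0.56 to 0.00) and did not pass, with an edgeR adjusted p of 0.375. Without knockout replicate 1 it was -0.18.

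Dnmt3b, the other de novo enzyme, stood at 98.1, 63.2 and 70.3 CPM in WT against 102, 72.7 and 90.0 CPM in the knockout. WT replicate 1 lay well above the other WT libraries and within the knockout range, so the groups overlapped. Its log2 fold change was 0.19 (SE 0.18, 95% interval -0.21 to 0.60; edgeR adjusted p = 0.658), running from 0.07 without WT replicate 2 and 0.08 without knockout replicate 1 to 0.32 without knockout replicate 2 and 0.41 without WT replicate 1. Dnmt3l, the catalytically inactive cofactor of this pair in germ cells, had 0 counts in 5 libraries and 2 counts in knockout replicate 2.

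All 3 TET genes had a knockout mean below the WT mean, and 0 passed the test. Tet1 measured 82.8, 91.0 and 72.6 CPM in WT against 64.3, 46.1 and 80.0 CPM in the knockout. Knockout replicates 1 and 2 lay below all WT libraries and knockout replicate 3 lay between them. The log2 fold change was -0.37 (SE 0.19, 95% interval -0.79 to 0.05; edgeR adjusted p = 0.409). Without knockout replicate 2 it was -0.19, and without knockout replicate 3 it was -0.57.

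Tet2, the TET gene most often mutated in blood malignancies, stood at 25.5, 31.9 and 37.3 CPM in WT against 20.6, 29.8 and 28.0 CPM in the knockout. Only knockout replicate 1 was below the WT range. Its log2 fold change was -0.27 (SE 0.20, 95% interval -0.72 to 0.17; edgeR adjusted p = 0.558), and it was -0.41 without WT replicate 1 and -0.13 without either WT replicate 3 or knockout replicate 1. Tet3 gave 42.2, 51.5 and 65.2 CPM in WT against 43.4, 49.0 and 57.3 CPM in the knockout, every knockout library lying inside the WT range. The log2 fold change of Tet3 was -0.09 (SE 0.18, 95% interval -0.48 to 0.31; edgeR adjusted p = 0.854), and it turned to 0.10 without WT replicate 3 and to 0.01 without knockout replicate 1.

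Taken as a mean, the stem cell and gate markers ranked the libraries nearly as Tet1 did. The mean of 16 LSK and stem cell markers was 0.24, 0.23 and -0.12 in WT and -0.21, -0.32 and 0.19 in the knockout, on the same centred log2 scale. Knockout replicate 3 lay above WT replicate 3 for this list and for Tet1, and knockout replicate 2 was lowest in both. Of the 16 markers 12 lay below WT (50.5% of all tested genes did) and 0 passed. The gate markers Kit and Ly6a (the Sca-1 gene) had the smallest p of the list, with log2 fold changes of -0.54 and 0.71. Singly, neither ranked the libraries as Tet1 did. Ly6a measured 60.3, 68.7 and 66.3 CPM in WT against 82.1, 119 and 119 CPM in the knockout. Kit measured 1323, 1367 and 1127 CPM in WT against 725, 817 and 1082 CPM in the knockout. The part of cell composition in the Tet1 value was not tested.

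Tdg, the glycosylase that removes 5-formylcytosine and 5-carboxylcytosine, was the member with the smallest p. It measured 140, 120 and 166 CPM in WT against 197, 219 and 187 CPM in the knockout. Each knockout library lay above each WT library, a ratio of means of 1.42, with an exact two-sided permutation p of 0.1, the minimum that 3 against 3 can give. The log2 fold change was 0.50 (SE 0.13, 95% interval 0.21 to 0.80). By edgeR the adjusted p was 0.298, so Tdg did not pass, while DESeq2 on the same counts gave a log2 fold change of 0.51 with an adjusted p of 0.0471. DESeq2 called 1.35% of the genes to which it gave an adjusted p, and Tdg was its single call among the 8. A log2 fold change at least this far from 0 was seen in 18.7% of all tested genes.

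Not all counts of Tdg and Dnmt3a were whole numbers, while the other 6 genes had whole counts in every library. Tdg has a processed pseudogene in the table, Tdg-ps, at 8.83 ± 1.76 CPM in WT against 8.07 ± 3.39 CPM in the knockout (SD, n = 3 each), and the sources used here do not say how the authors assigned reads common to both. With Tdg and Tdg-ps summed, the libraries stood at 151, 128 and 173 CPM in WT against 202, 226 and 199 CPM in the knockout. The groups stayed separate in that sum, with a log2 fold change of 0.47 (SE 0.13; edgeR adjusted p = 0.299). Dnmt3a and Dnmt3b each overlap an antisense transcript in the GENCODE annotation (Dnmt3aos and Dnmt3bos), and without a stated strand setting reads from both strands cannot be told apart. Dnmt3b nevertheless had whole counts in every library, and the source of the counts that were not whole was not tested.

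**Figure D3:**
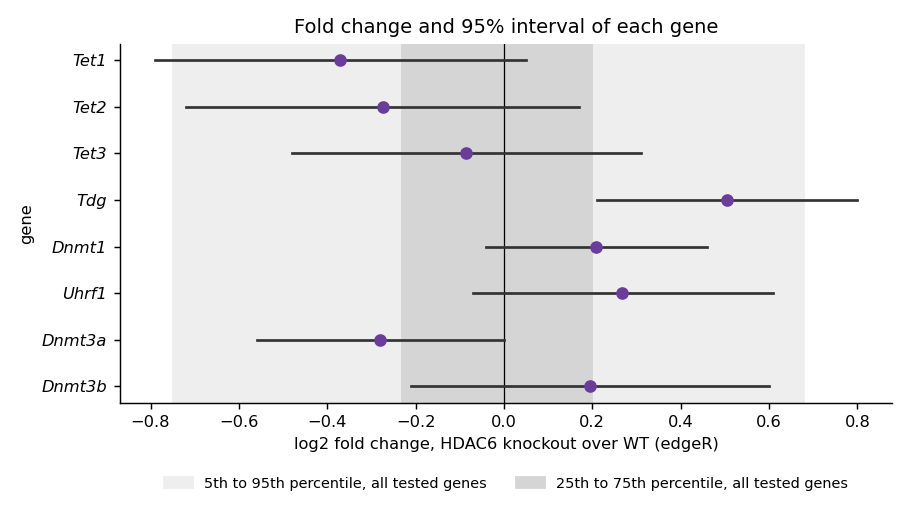
Points give the edgeR log2 fold change of each gene, knockout over WT, and lines its unadjusted 95% interval; grey bands hold the central part of all 12875 tested genes (25th to 75th percentile -0.23 to 0.20, 5th to 95th -0.75 to 0.68). The interval of Tdg, 0.21 to 0.80, lies above 0 and its point lies inside the wider band, as do the points of the other 7 genes.

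The balance within each family was read from deposited FPKM, since a share within a library does not depend on the scaling between libraries. Summed TET FPKM was 13.9, 15.9 and 16.0 in WT and 10.6, 10.9 and 14.7 in the knockout, with knockout replicate 3 inside the WT range. Tet1 made up 51.4%, 47.2% and 36.9% of the TET sum in WT and 45.1%, 32.4% and 43.5% in the knockout. The shares of Tet2 were 23.6% ± 2.71 and 23.8% ± 4.77, and those of Tet3 31.3% ± 4.76 and 35.8% ± 2.14 (WT and knockout, SD, n = 3 each). All 3 TET shares overlapped between the groups, with exact two-sided permutation p of 0.5 for Tet1, 0.9 for Tet2 and 0.3 for Tet3.

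Among the methyltransferases Dnmt1 made up 79.5% ± 2.96 of summed DNMT FPKM in WT and 81.2% ± 2.15 in the knockout (SD, n = 3 each; exact permutation p = 0.5). Dnmt3a held 6.9%, 8.0% and 7.2% in WT and 4.1%, 5.8% and 6.5% in the knockout, the 1 share of the 6 with separate groups. Its difference was -1.91 percentage points, with an exact two-sided permutation p of 0.1 and 0.6 after Benjamini-Hochberg adjustment over the 6 shares, and it was -1.21 points without knockout replicate 1. In FPKM, Dnmt1 exceeded Dnmt3a 10.97, 10.09 and 11.39 times in WT and 20.16, 14.2 and 12.13 times in the knockout, a ratio chosen after its values were seen. The Dnmt3b share was 13.1% ± 3.30 in WT and 13.3% ± 1.71 in the knockout (SD, n = 3 each; exact permutation p = 0.8). Since 0.1 is the smallest p this design allows, 0 of the 6 shares could pass a threshold of 0.05.

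**Figure D4:**
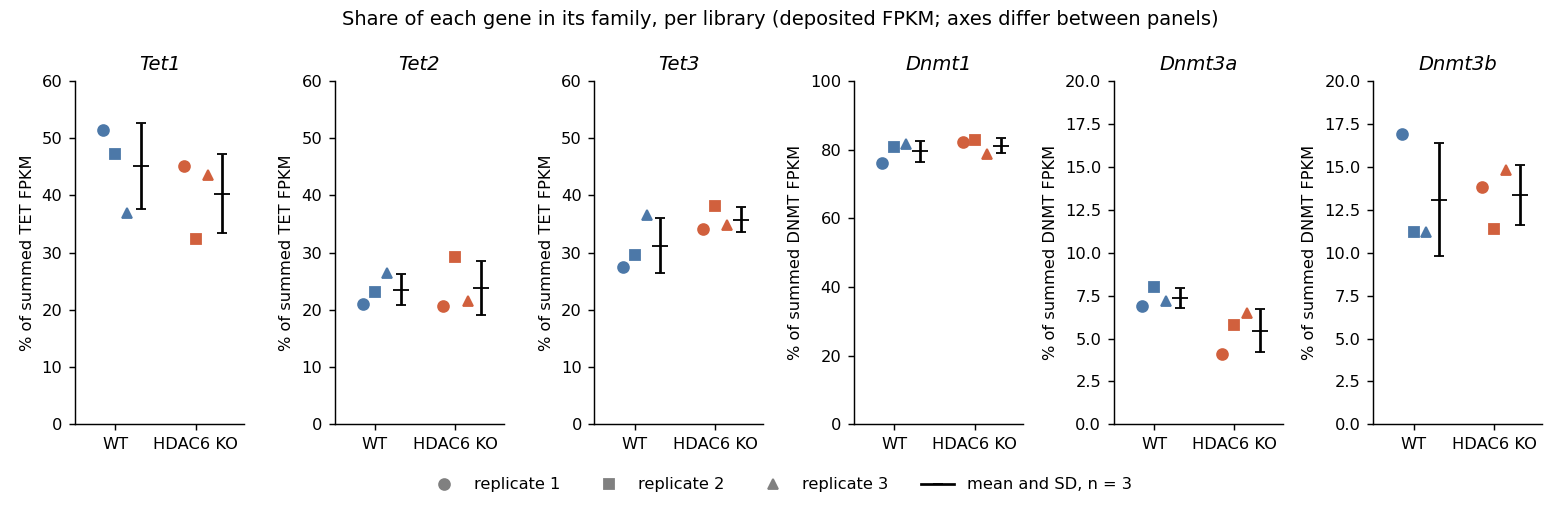
Share of each gene in the summed FPKM of its family (percent, axes from 0, scales differ) in every library, with the mean and SD of 3 libraries as bars; marker shape is the replicate number. Dnmt3a is the 1 gene whose WT shares (6.9% to 8.0%) and knockout shares (4.1% to 6.5%) are separate.

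Further genes of the pathway were read from 5 lists, and by edgeR 0 of their members passed in either direction. Partners of maintenance and de novo methylation had a median log2 fold change of 0.11. Of these, 11 of 17 tested genes lay above WT (49.5% of all tested genes did). Separate groups were seen in 4 (23.5%, against 18.6% of all tested genes). Pcna, the replication clamp that DNMT1 binds, measured 267 ± 20.1 CPM in WT against 328 ± 43.3 CPM in the knockout. Cdca7, which recruits the remodeller HELLS, stood at 542 ± 13.0 and 624 ± 66.1 CPM, also separate and higher in the knockout. On the lower side Atrx, a chromatin remodeller, measured 312 ± 16.8 and 261 ± 18.2 CPM, and Ehmt2, the histone methyltransferase G9a, 68.6 ± 5.63 and 55.5 ± 4.20 CPM (WT and knockout, SD, n = 3 each).

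Methyl-CpG binding proteins, which read the mark, were below WT for 6 of 10 genes (50.5% of all tested genes were). Separate groups were seen in 0 of the 10, against 18.6% of all tested genes. The median log2 fold change of the list was -0.14. Zbtb38 (-0.25), Zbtb4 (-0.64), Mbd5 (-0.25) and Mbd6 (-0.24) had the smallest p of this list. These 4 values are log2 fold changes, and the knockout and WT ranges overlapped in each.

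The list of TET partners and regulators had 11 tested genes with a median log2 fold change of 0.04. Separate groups were seen in 27.3% of them, against 18.6% of all tested genes. Ogt, the O-GlcNAc transferase that binds TET proteins, measured 346, 414 and 443 CPM in WT against 264, 330 and 290 CPM in the knockout. Every knockout library lay below every WT library, with a log2 fold change of -0.44 (SE 0.12; edgeR adjusted p = 0.298). Cxxc5, a CXXC zinc finger protein, had a log2 fold change of -0.49 with overlapping groups, and Wdr76 had 0.21. Pgr, the progesterone receptor gene, was at 1.50 ± 0.387 CPM in WT against 0.425 ± 0.308 CPM in the knockout (SD, n = 3 each), with a log2 fold change of -1.81 (SE 0.77).

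Base excision repair genes and others linked to active demethylation had a median log2 fold change of 0.07 over 19 tested genes. Of these, 10 lay above WT (49.5% of all tested genes did) and 9 below. Gadd45g, a stress-inducible gene linked to DNA demethylation, stood at 1.72 ± 0.659 CPM in WT against 4.54 ± 1.03 CPM in the knockout, a low level in both. Apobec3, a cytidine deaminase, measured 467 ± 37.1 and 567 ± 37.6 CPM, and both of these genes had separate groups. In the whole list 3 of 19 tested genes (15.8%) had separate groups, against 18.6% of all tested genes. Aptx, which repairs abortive ligation ends, had a log2 fold change of -0.36 and Gadd45b of 0.71, with overlapping groups.

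Enzymes that supply the methyl donor or set 2-oxoglutarate and its competitors were above WT for 12 of 20 genes (49.5% of all tested genes were). The median log2 fold change was 0.14. Separate groups were seen in 2 of the 20 (10%), against 18.6% of all tested genes. Fh1, fumarate hydratase, measured 159 ± 9.76 CPM in WT against 198 ± 20.9 CPM in the knockout (SD, n = 3 each) with separate groups. Sdhd (0.30), a succinate dehydrogenase subunit, and Ahcy (0.33), which clears S-adenosylhomocysteine, had positive log2 fold changes and overlapping groups. D2hgdh, which oxidises the TET inhibitor D-2-hydroxyglutarate, had a log2 fold change of -0.28.

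**Figure D5:**
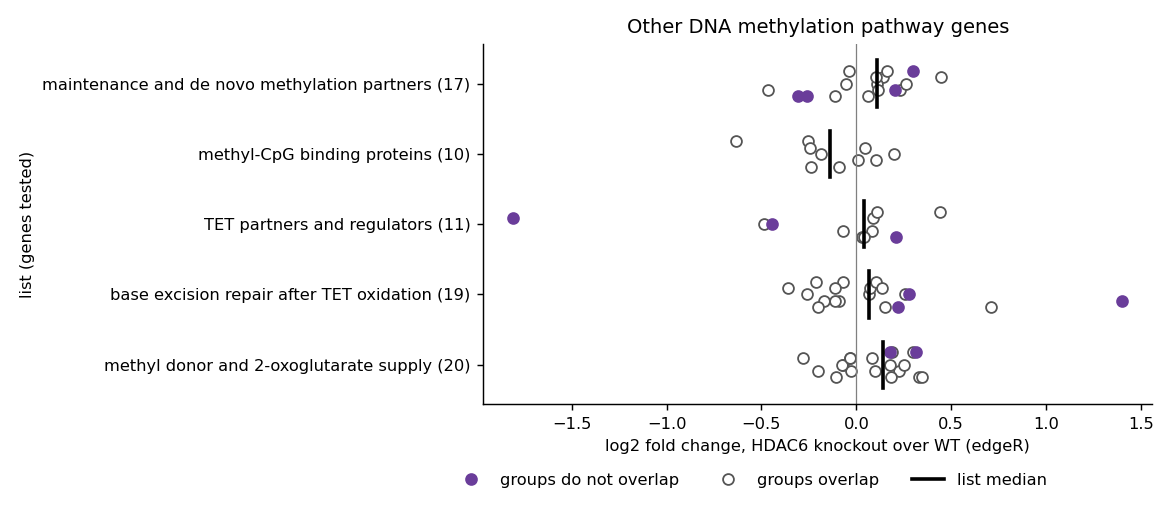
Each point is the edgeR log2 fold change (knockout over WT) of one tested gene of the 5 pathway lists, filled where the groups do not overlap; black bars are list medians, which run from -0.14 to 0.14. Gadd45g (1.40) and Pgr (-1.81), at the far right and left, are both low-level genes.

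By likeness over the 6 libraries (Pearson r of log2 CPM, against 10104 genes of at least 5 CPM), the genes closest to Dnmt1 were Cox19 (r = 0.999) and Tgm1 (0.995), and those closest to Uhrf1 were Il4ra (0.994) and Kpna1 (0.991). Tdg was closest to Xbp1, a transcription factor of the unfolded protein response (r = 0.989), and Abcc4 (0.983). Dnmt3a was closest to St3gal2 (0.995) and Ezh1, an H3K27 methyltransferase (0.995), and Dnmt3b to Myo19 (0.984) and 1600012H06Rik (0.971). For the TET genes these were Rsad1 (0.997) and Fgf11 (0.995) for Tet1, Zfp799 (0.988) and Ptpn7 (0.985) for Tet2, and Wasf2 (0.990) and Ubr4 (0.981) for Tet3. With 6 points for each of this many genes, these names are only a description.

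Markers of other cell types also differed between libraries, and their part in the values above was not tested. Summed neutrophil markers (9 of 9 tested) ran from 40.0 to 108 CPM in WT and 12.7 to 29.3 CPM in the knockout. Of the 9 markers 8 lay below WT (50.5% of all tested genes did). Ltf and Cd177 had the smallest p of this list, with log2 fold changes of -2.82 and -2.92. Of the T and NK cell markers (9 of 12 tested) 7 lay above WT (49.5% of all tested genes did), the median log2 fold change being 2.25. Separate groups were seen in 3 on the higher side and 1 on the lower (8.86% and 9.7% of all tested genes). The mean of their log2 CPM, each gene centred on its mean over the 6 libraries, was -1.33, -0.77 and -0.27 in WT against -0.11, 1.30 and 1.18 in the knockout. Il2rb (2.25) and Cd7 (2.76) had the smallest p and the 2 groups were separate for both, with Il2rb at 4.59 ± 1.52 CPM in WT against 21.9 ± 12.3 CPM in the knockout (SD, n = 3 each). The summed level overlapped, at 84.8 to 89.8 CPM in WT and 76.3 to 142 CPM in the knockout, and its main part in WT was Lck (66.2 CPM), whose log2 fold change was -0.42. Cd3e was at 0 counts in 5 of the 6 libraries and at 4 counts in WT replicate 3. Cd3d had 11 counts in knockout replicate 2 and 0 in the other libraries. Cd3g had 0 counts in every WT library and 5, 7 and 13 counts in knockout replicates 1 to 3. Erythroid markers (7 of 8 tested) summed to 158 to 199 CPM in WT and 208 to 392 CPM in the knockout, mostly Tfrc (log2 fold change 0.89) and Car1 (0.86), while the globin genes Hba-a1 (-0.88) and Hbb-bs (-0.88) lay below WT with overlapping groups. Monocyte and macrophage markers (8 of 8 tested) summed to 585 to 760 CPM in WT and 461 to 1207 CPM in the knockout. Cd68 (0.49) and Lyz2 (-0.27) had the smallest p and lay on opposite sides, and Ly6c2 (58.3 to 443 CPM) and Ccr2 (55.7 to 392 CPM) varied widely among the knockout libraries. B cell markers (5 of 8 tested) summed to 55.1 to 81.8 CPM in WT and 64.9 to 91.6 CPM in the knockout, with Ms4a1 at 0 counts in 4 libraries.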

How the data were processed

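RNA from 3 WT and 3 HDAC6 knockout LSK samples was sequenced. Per the submitters' processing notes, HISAT2 2.2.1, SAMtools 1.13, featureCounts 2.0.3, DESeq2 and GRCm39 were used, with no role given for each. For the annotation, the strand setting and shared reads the choices are not given in those notes or the labels. Per library the authors deposited estimated counts (19.6% to 20.9% of all 16022 rows, zeros included, not exactly whole) and FPKM values, per the file headers. Counts were rounded and tested with edgeR 4.0.16 in R 4.3.3 (filterByExpr with a minimum count of 10, TMM, robust quasi-likelihood fit), with Benjamini-Hochberg adjustment over 12875 genes and a threshold of 0.05. Standard errors follow from the fold change and its F statistic, and 95% intervals use the test's degrees of freedom. Shares of deposited FPKM were compared by exact permutation. Pairs of libraries differed by a chi-square per degree of freedom of 24.9 to 87.3, so each counted as 1 sample; the lowest was WT replicate 3 with knockout replicate 3.

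The members and gene lists were chosen with earlier results of these data known. Named genes are the 8 members, Hdac6, the 4 smallest p of each pathway list, the 2 smallest of each other list and the 2 most alike genes per member; 1 of these, with the gene ranked beside it, is not reported here. Tdg-ps, Dnmt3l and genes at or near 0 counts are named beyond this rule or beside it because a result turns on them. Alternatives were RLE, upper-quartile and library-size scaling, no filter, a filter of 5 CPM in 3 libraries, DESeq2 1.42.0, limma 3.58.1 (voom, and log2(FPKM + 1)), the replicate number as a block, dispersion without the robust option, the newer edgeR option and each library left out. Summing Tdg with Tdg-ps, and leaving out the 2 genes with counts that were not whole, were added after the data were seen.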

Additional observations from a re-analysis of the deposited data

How the results depend on the processing

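Of the 8 genes, 0 passed under any alternative except DESeq2, where 1 passed (Tdg, adjusted p = 0.0471), and genes called numbered 181 with DESeq2 against 1 by edgeR. With a library left out, edgeR called 1 to 44 genes, the 44 without knockout replicate 3 and 4 without knockout replicate 1, and 0 of the 8 genes each time. Tdg ran from 0.40 to 0.64 in log2 fold change over all alternatives, with adjusted p of 0.0471 to 0.744. Tet1, Tet2, Dnmt1, Dnmt3a, Dnmt3b, Uhrf1 and Tdg kept their direction under every alternative run. Tet3 ran from -0.22 to 0.10 with a library left out. The median of the 8 genes ran from -0.04 (without WT replicate 1) to 0.12 with a library left out. Differences in share of family FPKM with a library left out were -2.48 to 1.85 points for Tet2 (below 0 without WT replicate 1 or knockout replicate 2) and -0.76 to 2.11 points for Dnmt3b, so neither has a stable sign, while Tet1 (-8.94 to -0.858), Tet3 (2.69 to 7.24), Dnmt1 (0.0154, without WT replicate 1, to 2.93) and Dnmt3a (-2.42 to -1.21) kept theirs but varied in size. The cause of these changes was not tested. Samples with the same number did not deviate together (correlations 0.028, -0.035 and -0.108), so no pairing by number was seen. With 3 libraries a group, a pairing could have gone unseen. With the replicate block Tdg had a log2 fold change of 0.51 (adjusted p = 0.456), 0 of the 8 genes passed and no call changed. With 3 libraries a group, the 95% intervals of 7 genes include 0, and fold changes inside them cannot be told from none.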
